A study of Mus musculus with 12 samples.

Results

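TGF-beta pathway input was compared at its opposite ends in primary cultures of mouse stromal cells: cultures not labelled knockout that received TGFB1, the ligand (group TGFB1), against vehicle-treated cultures carrying the label Tgfbr2KO, after the gene of the type 2 TGF-beta receptor (group Tgfbr2KO_Vehicle, the knockout cultures in what follows). The 6 libraries, 3 in each group, were taken by their labels from the 12 of the study. The genes compared were those with an FPKM (fragments scaled to transcript length and library size) of at least 1 in at least 3 of these 6 libraries, which held for 12121 of the 25203 genes of the deposited table. Another group, cultures not labelled knockout that received vehicle (Vehicle, 3 libraries), was placed between the ends for description only. Per the series' design text the TGFB1 treatment was given to Pdgfra-lo-H2B-GFP cells, stromal cells with low signal of a nuclear green fluorescent reporter of Pdgfra, a platelet-derived growth factor receptor gene. That text names the Tgfbr2KO cells without saying how they were sorted. The labels give the cell type of every library as mesenchyme. They do not give the allele that removes Tgfbr2, the dose and duration of TGFB1, the age of the animals, or whether each library is from an animal of its own. All p-values therefore reflect how much libraries of a group differ, which may be technical. By their labels the groups at the ends differ in genotype and in treatment, and a difference between them holds both. Whether the knockout cultures also differ from the others in sorting is not given.

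TGF-beta ligands are secreted in a latent complex and, once released, bind the type 2 receptor, which recruits and activates the type 1 receptor. The activated pair phosphorylates SMAD2 and SMAD3, which join SMAD4 and enter the nucleus. In fibroblasts the pathway is known for inducing matrix and contractile genes, and in the intestine stromal fibroblasts also supply the BMP, WNT and R-spondin signals that act on the epithelium.

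Library quality was described first. Sums of FPKM ran from 498669 to 569510 over the libraries, and replicates correlated at 0.982 to 0.985 across genes in TGFB1 and at 0.974 to 0.987 in the knockout cultures. Read numbers are not given in the sources used here. Low values placed the depth relative to Vehicle replicate 1 at 0.745 to 0.799 for TGFB1, 0.860 to 1.02 for the knockout cultures and 0.962 to 1.05 for Vehicle. Over the tested genes the first principal component of the 9 libraries held 54.9% of the variance and placed the knockout cultures at -27.5 to -25.2, Vehicle at -18.2 to -12.6 and TGFB1 at 41.3 to 42.7. The second held 18.9%; the scores of Vehicle replicate 3 (38.4) and of Tgfbr2KO_Vehicle replicate 1 (-32.4) stood apart on it. Of 12 fibroblast markers, 10 were at 1 FPKM or more in every TGFB1 library and 11 in every knockout library, with a summed level of 8497 to 9437 FPKM and 3075 to 4508 FPKM respectively. Col1a1 alone had a mean of 4046 FPKM in TGFB1 and 1190 FPKM in the knockout cultures, a large part of these sums. By the test described below, 3 of the 11 tested markers were higher in TGFB1 (Col1a2, Col1a1 and Vim) and 2 lower (Pdgfra and Fbln1). The median difference of the 11 was 0.18 on the log2(FPKM + 1) scale. Summed smooth muscle and pericyte markers reached 8210 to 9267 FPKM in TGFB1 and 5099 to 5560 FPKM in the knockout cultures. Epithelial markers summed to 3.35 to 6.29 FPKM in TGFB1 and to 9.33 to 68.0 FPKM in the knockout cultures, with Cdx1 and Cdx2 at 0 in all 6. The highest sum was in Tgfbr2KO_Vehicle replicate 1, where Krt8 was at 25.8 FPKM against 0 and 0.0542 FPKM in replicates 2 and 3. Leukocyte markers summed to 17.7 to 441 FPKM in TGFB1 and to 360 to 539 FPKM in the knockout cultures, while Cd3e, of T cells, was at 0 in every knockout library and in 2 of 3 TGFB1 libraries. The part of these other cell types in the results was not tested, and in bulk RNA fewer cells of a type and less RNA per cell cannot be told apart.

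**Figure D1:**
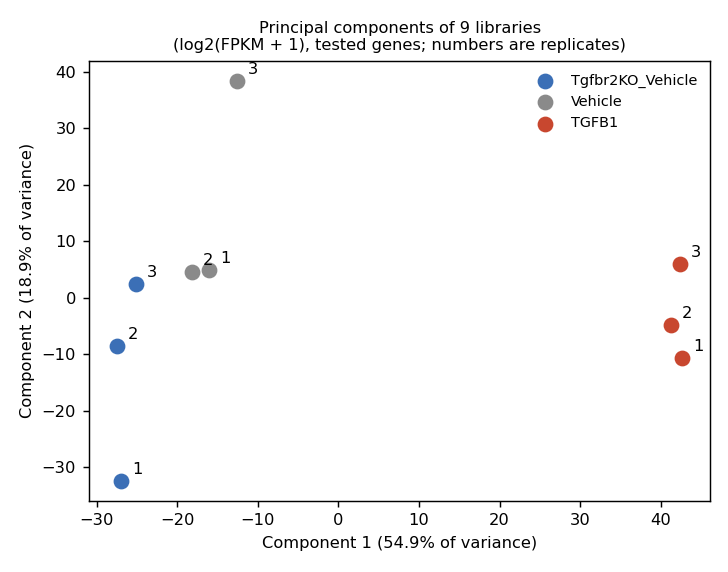
Scores of the 9 libraries on the first and second principal components of log2(FPKM + 1) over the tested genes, with points coloured by group and numbered by replicate. On the horizontal axis the knockout cultures lie at -27.5 to -25.2, Vehicle at -18.2 to -12.6 and TGFB1 at 41.3 to 42.7, while Vehicle replicate 3 and Tgfbr2KO_Vehicle replicate 1 lie farthest out on the vertical axis.

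Tgfbr2, the targeted gene, was measured at 27.0, 35.2 and 41.9 FPKM in the 3 knockout libraries, at 48.0, 38.2 and 78.8 FPKM in Vehicle and at 56.5, 70.6 and 74.6 FPKM in TGFB1. Every knockout library lay under every TGFB1 library, and the knockout libraries kept a sizeable signal. The difference between the ends was 0.95 (SE 0.30) on the log2(FPKM + 1) scale, with an adjusted p of 0.0284 from limma, which was lost (0.0646 to 0.0988) when TGFB1 replicate 2 or 3 or Tgfbr2KO_Vehicle replicate 1 or 2 was left out. Between Vehicle and the knockout cultures, which by their labels differ in genotype and not in treatment, the libraries overlapped. Each Vehicle library was above the knockout library of the same number. The difference of 0.61 did not pass in the fit without a replicate block (adjusted p = 0.254, limma). The deleted part of the gene is not in the labels, so FPKM over the whole gene may not check the deletion.

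Between the ends, 4600 genes (38.0% of those tested) passed an adjusted p of 0.05 in limma, a test on log2(FPKM + 1) with Benjamini-Hochberg adjustment over the 12121 genes. Of these, 2548 (21.0%) were higher in TGFB1 and 2052 (16.9%) were lower. When libraries were scaled to the same upper quartile the split became 2124 higher and 2384 lower. A difference of at least 1 on the log2 scale, a doubling of FPKM + 1, was reached by 356 of the higher (2.94%) and 524 of the lower genes (4.32%). Where 1 FPKM was required in all 6 libraries, these counts became 279 and 307. The 3 libraries of one end did not overlap those of the other for 6678 genes (55.1%), 3619 of them higher (29.9%) and 3059 lower (25.2%). Presence at 1 FPKM or more in all 3 libraries of one end and none of the other held for 85 genes in TGFB1 and 274 in the knockout cultures, and such genes were tested through 1 group only. Of the genes named below, Eln, Ctsw and Fgf21 are among the 85. Among the 274 are Lcn2, S100a8, Slpi, Ptx3, Prelp, Mmp3, Igfbp5, Efemp1, Frzb, Nkd2, Bmp2 and Sprr2h. The median difference over all tested genes was 0.02. In the same fit, which has no replicate block, TGFB1 against Vehicle gave 3969 calls (32.7%), 2192 higher (18.1%) and 1777 lower (14.7%). Vehicle against the knockout cultures gave 169 (1.39%), 100 higher (0.825%) and 69 lower (0.569%). This last count depended strongly on the fit. With the replicate number as a block, a setting added after seeing the data, it became 1914 (1005 higher and 909 lower). The block gave 5134 calls for TGFB1 against Vehicle. For each gene the difference between the ends is the sum of its differences in these comparisons, which share the Vehicle libraries.

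Eln, which encodes elastin, had the largest increase among genes with a mean of at least 5 FPKM at one end. It was listed at 0.160, 0.647 and 0.941 FPKM in the knockout libraries, 2.32, 1.35 and 10.8 FPKM in Vehicle and 108, 141 and 148 FPKM in TGFB1, so the 3 groups did not overlap and Vehicle lay between. The difference between the ends was 6.42 (SE 0.63, adjusted p = 3.51e-05 in limma), a 227-fold ratio of mean FPKM. Every knockout library was under 1 FPKM, so Eln was tested through TGFB1 only and the ratio rests on a low denominator. Mmp9, a gelatinase, was at 8.01, 12.7 and 21.5 FPKM in the knockout cultures and 185, 345 and 250.4 FPKM in TGFB1, a difference of 4.17 (SE 0.52). Odaph was at 5.29, 3.48 and 2.09 FPKM and 143, 71.1 and 37.3 FPKM, and its TGFB1 libraries spread widely but all lay above the knockout ones. Cthrc1, a secreted protein that contains a collagen triple helix repeat, was at 4.63, 4.56 and 7.22 FPKM and 82.9, 125 and 96.0 FPKM, with 9.32, 12.9 and 22.1 FPKM in Vehicle. Its difference was 3.99 (SE 0.31, adjusted p = 8.45e-06) and its groups were ordered without overlap. Pappa, a protease that cleaves insulin-like growth factor binding proteins, was at 1.22, 2.53 and 2.39 FPKM in the knockout cultures, 5.43, 3.49 and 9.94 FPKM in Vehicle and 43.3, 42.8 and 47.6 FPKM in TGFB1. Sorcs2, a sortilin-type receptor, was at 1.30, 2.76 and 5.53 FPKM, 6.73, 5.63 and 16.8 FPKM and 50.6, 53.5 and 60.2 FPKM in the same order of groups. Both were ordered like Cthrc1. Among the other of the 15 largest increases were Csrp2, a LIM protein of smooth muscle (3.54), Jag1, a Notch ligand (3.54), Tfpi2, a protease inhibitor (3.29), Ctsw, a cathepsin (3.12), Srpx2 (3.00) and Nrep (2.99).

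Lcn2, a siderophore-binding lipocalin of the acute phase response, had the largest decrease under the same conditions. It was at 180.2, 226 and 257 FPKM in the knockout libraries, 126, 106 and 69.5 FPKM in Vehicle and 0.457, 0.0995 and 0.0919 FPKM in TGFB1. Its groups were ordered without overlap and the difference was -7.51 (SE 0.23, adjusted p = 2.01e-08). All TGFB1 libraries were under 1 FPKM in Lcn2, S100a8, Slpi, Ptx3 and Prelp, so these genes were tested through the knockout cultures only. Saa3, a serum amyloid A protein, was at 704, 1850.3 and 2717 FPKM in the knockout cultures, 2309.6, 2869.7 and 2628 FPKM in Vehicle and 11.9, 6.15 and 8.82 FPKM in TGFB1. The Vehicle mean was above the knockout mean and the libraries of these groups overlapped, whereas the difference between the ends was -7.30 (SE 0.56, adjusted p = 7.52e-06). S100a8, a calgranulin, was at 219, 122 and 39.5 FPKM, 11.2, 4.05 and 0.727 FPKM and 0, 0.967 and 0 FPKM, a difference of -6.36 (SE 1.06). That difference became -5.81 without Tgfbr2KO_Vehicle replicate 1 and -7.04 without Tgfbr2KO_Vehicle replicate 3. The knockout libraries of S100a8 spread over a wide range and 2 of the TGFB1 libraries were at 0. Slpi, a secreted protease inhibitor, was at 149.7, 86.4 and 55.8 FPKM in the knockout cultures, 24.2, 19.7 and 9.30 FPKM in Vehicle and 0.0854, 0.557 and 0.344 FPKM in TGFB1, a difference of -6.11 (SE 0.48). The placental prolactin-family genes Prl2c3 (-5.65) and Prl2c2 (-5.32) were also among the 15 largest decreases, and since these copies are near-identical their reads may have been split between them. U90926 was at 204, 313 and 242 FPKM, 32.7, 97.2 and 31.9 FPKM and 2.12, 7.56 and 8.92 FPKM. It too was ordered without overlap. Ptx3, a pentraxin, was at 79.2, 81.0 and 54.5 FPKM in the knockout cultures and 0.547, 0.311 and 0.324 FPKM in TGFB1, and Vehicle (43.1, 62.3 and 28.4 FPKM) overlapped the knockout level. The chemokine gene Cxcl5 was at 713, 765 and 675 FPKM, 712, 747 and 541 FPKM and 12.7, 15.3 and 13.8 FPKM in the knockout cultures, Vehicle and TGFB1, with Vehicle at the knockout level. Prelp, a leucine-rich matrix protein (-4.31), Thbd, thrombomodulin (-4.08), and S100a4 (-3.73) were further members of the 15.

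**Figure D2:**
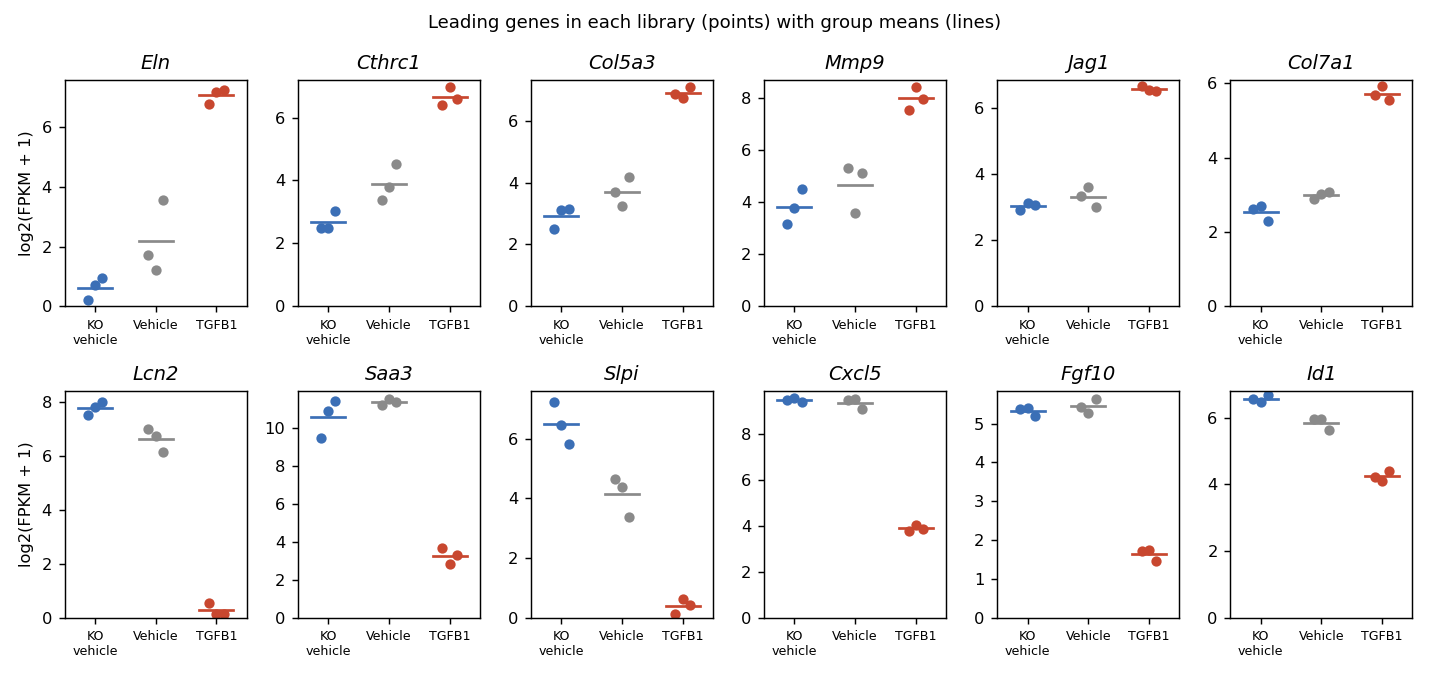
Expression of 12 genes as log2(FPKM + 1) in each library (points) with the mean of each group (lines), from left to right Tgfbr2KO_Vehicle (KO vehicle), Vehicle and TGFB1. Each panel has its own vertical scale from 0. The upper row holds genes higher in TGFB1 and the lower row genes lower in TGFB1. Vehicle lies between the ends in Eln, Cthrc1, Col5a3, Col7a1, Lcn2, Slpi and Id1, and near the knockout level in Jag1, Cxcl5 and Fgf10.

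Promoter windows of the most strongly ordered genes are shown to give the sequence in front of genes that follow pathway input in each direction. They are the 2 largest ordered increases and the 2 largest ordered decreases among genes with an entry in RefSeq's table of promoter windows, each 250 bases before the annotated start on build GRCm38.p6. Capitals mark matches, on either strand, to the SMAD palindrome GTCTNGAC, the SMAD core CAGACA or the AP-1 motif TGANTCA. Col5a3, which encodes a type V collagen chain, has the window chr9:20815068-20815317 on the minus strand. Col7a1, which encodes the collagen of anchoring fibrils, has chr9:108953336-108953585 on the plus strand. Lcn2 has chr2:32387740-32387989 and Slpi chr2:164356508-164356757, both on the minus strand.
Col5a3: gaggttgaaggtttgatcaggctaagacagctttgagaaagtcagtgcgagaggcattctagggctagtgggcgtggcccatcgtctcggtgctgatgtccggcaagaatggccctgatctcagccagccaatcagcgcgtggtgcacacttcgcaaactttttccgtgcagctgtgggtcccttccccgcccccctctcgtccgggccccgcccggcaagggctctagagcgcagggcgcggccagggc
Col7a1: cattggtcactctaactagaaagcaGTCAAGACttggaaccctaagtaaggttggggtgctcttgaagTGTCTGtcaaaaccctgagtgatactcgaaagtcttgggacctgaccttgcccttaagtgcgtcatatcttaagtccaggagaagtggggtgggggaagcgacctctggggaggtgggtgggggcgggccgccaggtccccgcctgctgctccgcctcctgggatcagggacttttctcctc
Lcn2: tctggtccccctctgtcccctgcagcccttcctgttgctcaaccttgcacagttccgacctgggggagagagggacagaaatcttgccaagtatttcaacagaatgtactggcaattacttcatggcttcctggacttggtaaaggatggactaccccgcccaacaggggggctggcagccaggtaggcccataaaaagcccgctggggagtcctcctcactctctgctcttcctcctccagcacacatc
Slpi: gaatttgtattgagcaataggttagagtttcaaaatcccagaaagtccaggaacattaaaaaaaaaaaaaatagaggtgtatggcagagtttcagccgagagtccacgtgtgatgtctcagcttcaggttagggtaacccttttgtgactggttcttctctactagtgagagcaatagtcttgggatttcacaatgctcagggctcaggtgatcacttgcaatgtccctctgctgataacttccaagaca
The Col7a1 window held a palindrome match, GTCAAGAC, at position -225 from the start, and a core match, TGTCTG, at position -182. No match was found in the other windows. Eln, Cthrc1, Pappa, Sorcs2 and Csrp2, which are ordered with larger increases than Col7a1, were not matched in the table. The palindrome was in 2.19% of the 320 windows of genes at least 2-fold higher, 1.78% of the 507 windows of genes at least 2-fold lower and 1.49% of the 12140 windows of tested genes. For the SMAD core these shares were 17.2%, 14.2% and 13.2%. For the AP-1 motif they were 10.3%, 9.86% and 4.74%. Over all 32851 windows of the promoter table the palindrome was in 1.47%, the SMAD core in 17.1% and the AP-1 motif in 6.75%. The SMAD core share of the higher genes was thus near that of all windows. Windows of 9529 tested genes matched by symbol, and genes with more than 1 start have more than 1 window. The shares are descriptions, and a match of letters is not a bound site.

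Beside the counts of list members that follow, 21.0% of all tested genes were higher, 16.9% were lower and 7.16% were ordered without overlap. The lists were chosen with earlier results of these data known, so their counts and their ranking by median are descriptions. Genes of TGF-beta supply were mostly higher in TGFB1. Of 17 tested ligands, receptors and parts of the latent complex, 10 were higher and 1 was lower, with a median difference of 0.46. The 10 include Tgfbr2, the gene targeted in the knockout cultures, whose call depended on single libraries as given above. Tgfb2, a ligand gene, was at 8.94, 6.10 and 4.59 FPKM in the knockout cultures, 7.73, 6.50 and 4.93 FPKM in Vehicle and 21.962, 20.6 and 19.4 FPKM in TGFB1. Its difference was 1.56 (SE 0.26, adjusted p = 0.00115), with Vehicle at the knockout level. Tgfb1 itself was at 32.8, 33.1 and 31.9 FPKM and 53.7, 49.6 and 56.7 FPKM, a difference of 0.69 (SE 0.08). Ltbp4, a latent TGF-beta binding protein, was at 6.44, 8.01 and 8.10 FPKM, 14.8, 14.0 and 21.3 FPKM and 32.7, 41.4 and 36.5 FPKM and was ordered (2.15). The integrin chain gene Itgb5 was higher by 1.09 (SE 0.07). Tgfbr3, the betaglycan coreceptor, was the member that was lower, at 16.3, 30.6 and 30.4 FPKM in the knockout cultures, 27.1, 31.3 and 34.9 FPKM in Vehicle and 1.71, 4.32 and 4.51 FPKM in TGFB1. Its difference was -2.59 (SE 0.34, adjusted p = 0.000242). Tgfbr1, the type 1 receptor, did not pass, at 12.3, 14.7 and 14.5 FPKM and 13.0, 12.6 and 12.5 FPKM at the ends, and the interval of its difference ran from -0.39 to 0.17.

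Among 15 SMADs, corepressors and feedback inhibitors, 8 were higher and 4 lower, against 21.0% and 16.9% of all tested genes. Their median was 0.34. Pmepa1, a membrane inhibitor of SMAD activation, was at 27.1, 28.6 and 27.9 FPKM in the knockout cultures, 41.5, 35.2 and 37.6 FPKM in Vehicle and 141, 113 and 113 FPKM in TGFB1. It was ordered without overlap, with a difference of 2.09 (SE 0.11, adjusted p = 9.95e-07). Ldlrad4, of the same inhibitor family, was higher by 1.97 and ordered, and Skil, a SMAD corepressor, by 1.22. Smad7, the inhibitory SMAD known as a direct target of the pathway, did not pass. It was at 38.7, 27.6 and 21.8 FPKM in the knockout cultures, 24.8, 24.8 and 14.1 FPKM in Vehicle and 37.2, 40.4 and 32.5 FPKM in TGFB1. Its difference between the ends was 0.34, with a 95% interval of -0.32 to 1.00 and an adjusted p of 0.394, and its Vehicle mean lay below both ends. The 4 lower members were Smad6, an inhibitory SMAD of the BMP branch (-0.65), and, chosen after their values were seen, Smad3 (-0.47), Bambi (-0.50) and Zeb2 (-0.40). Of 22 early TGFB-SMAD targets, 16 were higher and 1 lower, with a median of 0.77. Bhlhe40, a transcriptional repressor, was at 11.1, 15.3 and 17.3 FPKM, 20.4, 18.9 and 29.7 FPKM and 80.2, 84.8 and 89.7 FPKM in the knockout cultures, Vehicle and TGFB1. Nox4, an NADPH oxidase, was at 2.35, 2.95 and 2.92 FPKM, 3.56, 3.23 and 4.05 FPKM and 16.8, 14.2 and 14.2 FPKM. Both were ordered. Cdkn2b, a cyclin-dependent kinase inhibitor, was at 27.4, 17.9 and 18.1 FPKM in the knockout cultures and 111, 85.6 and 98.6 FPKM in TGFB1 (2.19), with 20.3, 13.6 and 14.8 FPKM in Vehicle, at or near the knockout level. Ccn2, connective tissue growth factor, was at 799, 686 and 555 FPKM, 803, 739 and 455 FPKM and 2002, 1963 and 1982 FPKM and was higher by 1.56 (SE 0.34). The lower member, chosen after its value was seen, was Lmcd1 (-1.47). Tgfbi, an extracellular adhesion protein, did not pass, at 3.53, 14.9 and 30.2 FPKM and 10.6, 16.4 and 20.0 FPKM at the ends with 41.7, 52.9 and 156 FPKM in Vehicle, above both ends.

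Fibrillar and fibril-associated matrix genes formed the list with the highest median difference, 1.25, of the 31 pathway lists with at least 10 tested members. Of 23 tested members 16 were higher in TGFB1, 14 of them at least 2-fold, and 10 of the 23 were ordered. Over all tested genes these shares were 21.0%, 2.94% and 7.16%. Col5a3 was at 4.71, 7.56 and 7.75 FPKM in the knockout cultures, 11.8, 8.37 and 16.9 FPKM in Vehicle and 114, 106 and 135 FPKM in TGFB1, a difference of 3.98 (SE 0.29, adjusted p = 5.38e-06). Col7a1 was at 5.19, 5.50 and 3.91 FPKM, 6.40, 7.14 and 7.42 FPKM and 50.2, 59.2 and 45.5 FPKM (3.17, SE 0.14). Col11a1, a minor fibrillar collagen, was at 1.43, 4.55 and 8.13 FPKM, 7.90, 6.88 and 25.2 FPKM and 61.9, 58.8 and 79.2 FPKM (3.75, SE 0.63), and the lowest Vehicle library overlapped the highest knockout library. Col5a3, Col7a1 and Col11a1 were named for the size of their differences, so their place above the type I chains follows from that choice. Of other higher chains, chosen after their values were seen, Col5a1 lay above Col1a1. Col5a2, Col6a3, Col16a1 and Col8a1 lay below it. Col1a1 was at 845, 1395 and 1329 FPKM in the knockout cultures, 2546, 2165 and 3881 FPKM in Vehicle and 3737, 4110.4 and 4291 FPKM in TGFB1, with a difference of 1.80 (SE 0.30, adjusted p = 0.000998). Its Vehicle mean lay nearer to the TGFB1 end, and its Vehicle replicate 3 overlapped the TGFB1 libraries. Col3a1, the type III chain, did not pass. It was at 126, 312 and 358 FPKM in the knockout cultures, 635, 609.6 and 1738 FPKM in Vehicle and 349.9, 430.0 and 501 FPKM in TGFB1, so Vehicle lay above both ends. The difference between the ends was 0.80, with a 95% interval of -0.58 to 2.19 and an adjusted p of 0.341. Members that were lower, chosen after their values were seen, were Col14a1 (-1.48), Vcan (-0.86) and Col12a1 (-0.67).

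Collagen processing and cross-linking genes were higher in 14 of 18 tested members, with a median of 0.84, and 1 was lower. Lox, the lysyl oxidase that cross-links collagen and elastin, was at 61.7, 124 and 154 FPKM, 231, 212 and 275 FPKM and 659, 622 and 591 FPKM in the knockout cultures, Vehicle and TGFB1. Loxl2 was at 214, 281 and 283 FPKM, 424, 348 and 455 FPKM and 955, 951 and 991 FPKM, and Bmp1, the procollagen C-proteinase, at 108, 126 and 121.21 FPKM, 164, 154 and 194 FPKM and 324, 334 and 359 FPKM. All 3 genes were ordered without overlap. Their differences were 2.55, 1.90 and 1.51. Pcolce, an enhancer of that proteinase chosen after its value was seen, was the lower member (-1.09). Elastic fibre and microfibril genes were higher in 10 of 16 and lower in 2, with a median of 0.59. Beside Eln and Ltbp4 the largest of them was Mfap4 (2.08), whose call was lost at adjusted p of 0.0507 to 0.0982 when any one of TGFB1 replicates 2 and 3 or the knockout libraries was left out. Efemp1, a fibulin, was lower, at 4.13, 7.27 and 7.4961 FPKM in the knockout cultures and 0.0603, 0.162 and 0.212 FPKM in TGFB1 (-2.64, SE 0.31). The other lower member, Fbln1 (chosen after its value was seen, -1.33), lost its call without TGFB1 replicate 1 or knockout replicate 2 or 3. Matrix proteases and inhibitors moved both ways, with 11 of 23 higher and 6 lower. Adamts12 was at 8.27, 10.8 and 9.31 FPKM, 22.4, 15.3 and 24.5 FPKM and 52.7, 47.8 and 49.4 FPKM (2.29). Mmp3, stromelysin, went the opposite way, at 39.6, 26.3 and 11.7 FPKM in the knockout cultures, 4.87, 2.47 and 2.00 FPKM in Vehicle and 0.0348, 0.112 and 0.315 FPKM in TGFB1 (-4.39, SE 0.48). Both were ordered.

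Contractile and actin genes were higher in 16 of 24 tested members and lower in none, with a median of 0.45. At least 2-fold higher were 2 of the 24, Itga5 and Des. Tagln, transgelin, was at 1686, 1572 and 1592 FPKM in the knockout cultures, 1922, 1799.6 and 1537 FPKM in Vehicle and 3342, 2863 and 3063 FPKM in TGFB1, a difference of 0.93 (SE 0.15, adjusted p = 0.000827). Tpm1, a tropomyosin, was at 1627, 1638 and 1646 FPKM, 1726, 1879 and 1593 FPKM and 3085, 3301 and 3224 FPKM (0.97). Itga5, a fibronectin receptor chain, was at 322, 294 and 275 FPKM and 753, 681 and 679.9 FPKM at the ends (1.25, SE 0.19). Acta2, smooth muscle actin, was at 1803, 1742 and 1788 FPKM, 2022, 1945 and 1657 FPKM and 2684, 2294 and 2265 FPKM. Its difference was 0.44 (SE 0.14, adjusted p = 0.0333), and the call was lost (0.0540 to 0.115) whenever any one of the 6 libraries was left out. Des, desmin, was at 0.584, 1.45 and 2.20 FPKM and 2.31, 4.85 and 7.04 FPKM at the ends (1.22, adjusted p = 0.0285), and its call was lost (0.0619 to 0.110) without TGFB1 replicate 2 or 3 or Tgfbr2KO_Vehicle replicate 1 or 2. The 3 groups of these 5 genes were not ordered without overlap. Of 10 tested smooth muscle and pericyte markers 7 were higher and 1 was lower. All of these 7 but Cspg4 are also higher members of the contractile list, so the markers are not separate evidence. The part of smooth muscle cells or pericytes in the contractile list was not tested. Of 6 smooth muscle transcription regulators none was higher and Gata6 was lower (-0.46), while Srf, chosen after its value was seen, was at 48.1, 45.4 and 42.5 FPKM and 49.2, 54.0 and 53.8 FPKM at the ends. YAP-TEAD targets were higher in 6 of 15 and lower in 1, against 21.0% and 16.9% of all tested genes. Among the higher ones were Ajuba (0.76), which was ordered, and Amotl1 (0.70), whose Vehicle libraries lay at the knockout level.

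Most BMP targets were lower in TGFB1. Of 14 tested BMP-SMAD targets 10 were lower in TGFB1 and 1 was higher, with a median of -0.79, and 7 of the 14 were ordered. Over all tested genes 16.9% were lower, 21.0% higher and 7.16% ordered. Id1, an inhibitor of basic helix-loop-helix factors, was at 93.6, 87.3 and 101 FPKM in the knockout cultures, 61.7, 61.1 and 48.4 FPKM in Vehicle and 17.7, 16.3 and 20.3 FPKM in TGFB1. Its difference was -2.32 (SE 0.12, adjusted p = 6.92e-07). Id2 was at 36.1, 40.3 and 36.5 FPKM, 28.040, 27.8 and 28.5 FPKM and 6.01, 2.65 and 6.42 FPKM (-2.75, SE 0.23). Id4 (-1.67) and Atoh8 (-1.76) were lower on the same scale, and of these 4 Atoh8 alone was not ordered, because Vehicle overlapped the knockout cultures. Bmp4, a ligand of the branch, was at 20.2, 25.7 and 14.8 FPKM in the knockout cultures, 20.3, 14.0 and 12.2 FPKM in Vehicle and 0.863, 1.34 and 1.53 FPKM in TGFB1 (-3.22, SE 0.23, adjusted p = 5.25e-06). Bmp2 was at 5.97, 2.69 and 2.37 FPKM, 1.87, 0.654 and 1.96 FPKM and 0.226, 0.104 and 0.618 FPKM (-1.77) and was ordered.

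Niche and WNT agonist genes were lower in 6 of 12 tested members and higher in 3, with a median of -1.49, and none of the 12 was ordered. Fgf10, a mesenchymal growth factor for epithelium, was at 40.3, 41.1 and 35.6 FPKM in the knockout cultures, 42.2, 38.0 and 48.5 FPKM in Vehicle and 2.26, 2.37 and 1.76 FPKM in TGFB1, a difference of -3.68 (SE 0.14, adjusted p = 1.78e-07). Vehicle was at the knockout level. Grem1, a BMP antagonist, was at 812, 819 and 690.3 FPKM, 789, 642 and 740.0 FPKM and 339, 250.2 and 234 FPKM (-1.51, SE 0.15). Rspo3, an R-spondin that potentiates WNT signalling, was at 4.10, 7.52 and 9.66 FPKM, 8.98, 7.97 and 17.5 FPKM and 0.597, 1.20 and 1.03 FPKM (-2.01, SE 0.40). Cd34, a sialomucin of stromal cells, was lower (-3.44), as was the growth factor gene Fgf7 (-2.37). Pdgfra, whose reporter is in the name of the cells, was at 48.3, 75.3 and 99.8 FPKM in the knockout cultures, 137, 125 and 165 FPKM in Vehicle and 13.8, 19.7 and 12.1 FPKM in TGFB1, a difference of -2.19 (SE 0.38, adjusted p = 0.00127). Every TGFB1 library lay below every other library, and every Vehicle library lay above the knockout ones. The higher members, chosen after their values were seen, were Wnt9a (1.54), Wnt5a (0.89) and Cd81 (0.50). Among 11 WNT targets and antagonists 4 were higher, a count that became 2 without TGFB1 replicate 3 or knockout replicate 2, and 3 were lower. The lower ones were Frzb, at 13.8, 18.1 and 14.0 FPKM in the knockout cultures, 15.4, 10.8 and 15.3 FPKM in Vehicle and 0.985, 0.624 and 0.951 FPKM in TGFB1 (-3.13), Nkd2 (-2.94) and Sfrp2 (-1.41). Frzb and Sfrp2 encode secreted WNT antagonists and Nkd2 an intracellular one.

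Most inflammatory genes on the lists were lower in TGFB1. Of 23 acute phase and inflammatory fibroblast genes 15 were lower, with a median of -1.80, and the 1 higher member, Tnfaip3 (chosen after its value was seen), lost its call when any one of the 6 libraries was left out. Il6 was at 84.3, 115 and 92.5 FPKM in the knockout cultures, 66.2, 71.8 and 59.2 FPKM in Vehicle and 9.42, 14.3 and 18.2 FPKM in TGFB1, a difference of -2.74 (SE 0.20, adjusted p = 5.38e-06), and was ordered without overlap. Vcam1, an adhesion molecule chosen after its values were seen, was at 82.4, 81.6 and 73.1 FPKM, 53.2, 62.7 and 58.6 FPKM and 10.5, 10.6 and 9.55 FPKM (-2.84) and was ordered as well. Of 15 chemokines 12 were lower and none was higher, a count of 12 that became 7 without TGFB1 replicate 1 or without Tgfbr2KO_Vehicle replicate 3, and the median was -1.18. Cxcl1, a neutrophil attractant, was at 447, 330.3 and 261 FPKM in the knockout cultures, 256, 189 and 95.6 FPKM in Vehicle and 26.7, 24.1 and 28.3 FPKM in TGFB1, ordered without overlap, with a difference of -3.63 (SE 0.34). Cxcl2 was at 12.4, 9.82 and 5.94 FPKM and 1.44, 0.780 and 1.98 FPKM at the ends (-2.09). Of 9 complement genes 5 were lower (3 without TGFB1 replicate 3) and none was ordered. C3, the central complement component, was at 31.8, 43.0 and 45.3 FPKM in the knockout cultures, 45.0, 54.7 and 72.3 FPKM in Vehicle and 4.34, 7.27 and 5.87 FPKM in TGFB1 (-2.59, SE 0.29). The C1 inhibitor gene Serping1 was at 29.5, 41.3 and 54.2 FPKM, 54.9, 86.7 and 100.3 FPKM and 5.71, 10.4 and 9.13 FPKM (-2.17). In both, the Vehicle mean was above the knockout mean. Among interferon response genes 2 of 14 were lower, a share under the 16.9% of all tested genes, Usp18 (-1.41) and Ifit2 (-1.05), and none was higher. S100a8 is also one of the 15 leukocyte markers, of which it and Cd14 (chosen after its value was seen, -1.05) were the lower ones of 11 tested. The macrophage marker Lyz2 was at 107, 304 and 241 FPKM in the knockout cultures and 214, 8.28 and 250.1 FPKM in TGFB1, lowest in TGFB1 replicate 2, and its part in these results was not tested.

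Growth factors moved in both directions, with 10 of 25 higher and 10 lower, against 21.0% and 16.9% of all tested genes. Fgf21, an endocrine fibroblast growth factor, was at 0, 0.0722 and 0.0608 FPKM in the knockout cultures, 0.0633, 0.120 and 0 FPKM in Vehicle and 8.27, 4.27 and 6.73 FPKM in TGFB1 (2.79, SE 0.20). Pdgfc was at 7.13, 8.16 and 7.98 FPKM, 11.5, 10.2 and 10.8 FPKM and 49.9, 45.8 and 43.4 FPKM (2.44, SE 0.10) and was ordered. Kitl, the ligand of the KIT receptor, was at 14.7, 14.1 and 22.043 FPKM, 9.62, 12.9 and 14.5 FPKM and 0.808, 0.973 and 1.83 FPKM (-3.03, SE 0.27), with Vehicle overlapping the knockout level. Vegfd, a vascular growth factor gene, was lower (-2.87). In the insulin-like growth factor axis Igfbp5 was at 18.6, 33.9 and 19.0 FPKM in the knockout cultures, 28.8, 21.9 and 26.9 FPKM in Vehicle and 0.734, 0.255 and 0.758 FPKM in TGFB1 (-3.94). Igfbp4 was at 166, 285 and 279.6 FPKM, 399.9, 373 and 620.5 FPKM and 23.2, 31.1 and 29.5 FPKM (-3.05). Pappa, the protease gene among the largest increases, differed in the opposite direction from both of these binding proteins. Jag1 was at 6.60, 7.73 and 7.40 FPKM in the knockout cultures, 9.19, 11.2 and 7.03 FPKM in Vehicle and 101, 92.8 and 90.1 FPKM in TGFB1. Of 11 Notch genes 5 were higher and 3 lower, against 21.0% and 16.9% of all tested genes. The lower ones were led by the ligand gene Dll1 (-1.31) and the receptor gene Notch1 (-0.74).

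Most proliferation genes were lower in TGFB1 than in the knockout cultures. Of 26 cell cycle genes 23 were lower and none was higher, with a median of -0.68, and none was ordered. Cdk1, the mitotic kinase, was at 15.6, 19.2 and 20.5 FPKM in the knockout cultures, 18.7, 18.5 and 14.1 FPKM in Vehicle and 7.87, 10.7 and 8.27 FPKM in TGFB1, a difference of -0.97 (SE 0.15, adjusted p = 0.000582). Birc5, survivin, was at 43.0, 43.6 and 56.6 FPKM, 47.2, 57.2 and 38.0 FPKM and 19.0, 28.9 and 21.3 FPKM (-1.03). Vehicle overlapped the knockout cultures in both. Ccnd1, cyclin D1, was at 119, 80.3 and 98.3 FPKM, 56.6, 48.7 and 33.6 FPKM and 18.8, 16.9 and 19.0 FPKM (-2.36, SE 0.23) and, unlike these mitotic genes, was ordered without overlap.

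Most serine, proline and ATF4 genes were higher in TGFB1. Of 21 tested members 16 were higher and none lower, with a median of 0.74, and 12 of the 21 (against 7.16% of all tested genes) were ordered without overlap. Aldh1l2, a mitochondrial folate enzyme, was at 8.58, 11.0 and 11.5 FPKM in the knockout cultures, 17.3, 15.5 and 23.4 FPKM in Vehicle and 36.3, 35.4 and 35.3 FPKM in TGFB1, a difference of 1.70 (SE 0.19, adjusted p = 8.02e-05). Pycr1, which makes proline, was at 5.30, 4.44 and 6.39 FPKM, 9.61, 7.79 and 12.6 FPKM and 14.7, 13.3 and 15.3 FPKM (1.29). Cth, of transsulfuration, was at 6.37, 9.00 and 7.48 FPKM, 13.3, 9.07 and 13.6 FPKM and 19.5, 18.0 and 21.9 FPKM (1.28). Each of these 3 had its Vehicle libraries between the ends. Trib3 was higher by 1.60 and was not ordered, since its Vehicle replicate 3 overlapped TGFB1. Psat1, an enzyme of serine synthesis, was among the members that did not pass, at 99.5, 98.2 and 113 FPKM and 111, 113 and 109.7 FPKM at the ends. Secretory pathway and collagen folding genes were higher in 10 of 22 and lower in none, with a median of 0.23. Creb3l1, a transcription factor of secretory capacity, was at 41.2, 63.1 and 60.5 FPKM, 110.4, 96.1 and 122.74 FPKM and 148, 166 and 163 FPKM (1.54), and Creb3l2 was higher by 1.21. Both were ordered.

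Antioxidant and NADPH oxidase genes were lower in 9 of 19 tested members and higher in 4, and the median was -0.31. The higher members were Nox4 and, chosen after their values were seen, the oxidase subunit gene Cyba and the glutathione peroxidase genes Gpx3 and Gpx7. Nqo1, a quinone reductase, was at 64.3, 41.4 and 34.3 FPKM in the knockout cultures, 22.7, 26.0 and 14.1 FPKM in Vehicle and 13.2, 11.8 and 9.49 FPKM in TGFB1, a difference of -1.89 (SE 0.35, adjusted p = 0.00183), ordered without overlap. Gclc, of glutathione synthesis, was at 35.1, 31.9 and 22.3 FPKM, 18.9, 20.5 and 12.6 FPKM and 13.1, 10.8 and 9.92 FPKM (-1.31), and its Vehicle replicate 3 lay within the TGFB1 range. Sod3, the extracellular superoxide dismutase, was at 31.013, 55.7 and 50.8 FPKM, 81.7, 54.2 and 77.5 FPKM and 12.1, 14.4 and 15.4 FPKM (-1.61), with Vehicle on the far side of the knockout mean. Mesenchymal transcription factor genes were higher in 6 of 23 and lower in 9, against 21.0% and 16.9% of all tested genes. The higher count was thus near the share of all tested genes. Twist2 was at 34.9, 45.0 and 36.6 FPKM in the knockout cultures, 14.954, 23.4 and 11.3 FPKM in Vehicle and 1.5008, 2.05 and 4.23 FPKM in TGFB1 (-3.54, SE 0.31), ordered without overlap. Scx, scleraxis, a tendon factor, was at 0.941, 0.510 and 1.10 FPKM, 1.19, 2.06 and 4.26 FPKM and 5.66, 10.8 and 11.1 FPKM (2.42) and was ordered in the opposite direction. Prrx1 (-2.55) and Tcf21 (-2.51) were lower as well. Adipogenic and lipid storage genes were lower in 6 of 10 and higher in none, among them Fabp4 (-2.76), Lpl (-2.27) and Cebpd (-2.11).

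Respiratory chain genes were higher in 3 of 21, under the 21.0% of all tested genes, glycolysis and hypoxia genes in 4 of 20 with 1 lower, and cholesterol synthesis genes in 2 of 23 with 3 lower. MAPK immediate early genes were higher in 7 of 22 (3 without TGFB1 replicate 3, 4 without knockout replicate 1) and lower in 4, Fosl1 (-2.11) and Spry2 (-1.53) having the largest decreases and Egr2 (2.88) the largest increase. Guidance signal genes were lower in 9 of 17 and higher in 4, against 16.9% and 21.0% of all tested genes. Sema3e was at 48.7, 32.8 and 27.5 FPKM in the knockout cultures and 4.80, 4.45 and 4.11 FPKM in TGFB1 (-2.74). Sema7a was at 2.87, 2.34 and 1.39 FPKM and 15.9, 14.1 and 16.0 FPKM (2.38). Retinoid and hedgehog genes were lower in 5 of 10. The retinaldehyde dehydrogenase genes diverged, since Aldh1a3 was higher by 1.87 while Aldh1a1 (-1.55) and Aldh1a2 (-1.07) were lower.

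**Figure D3:**
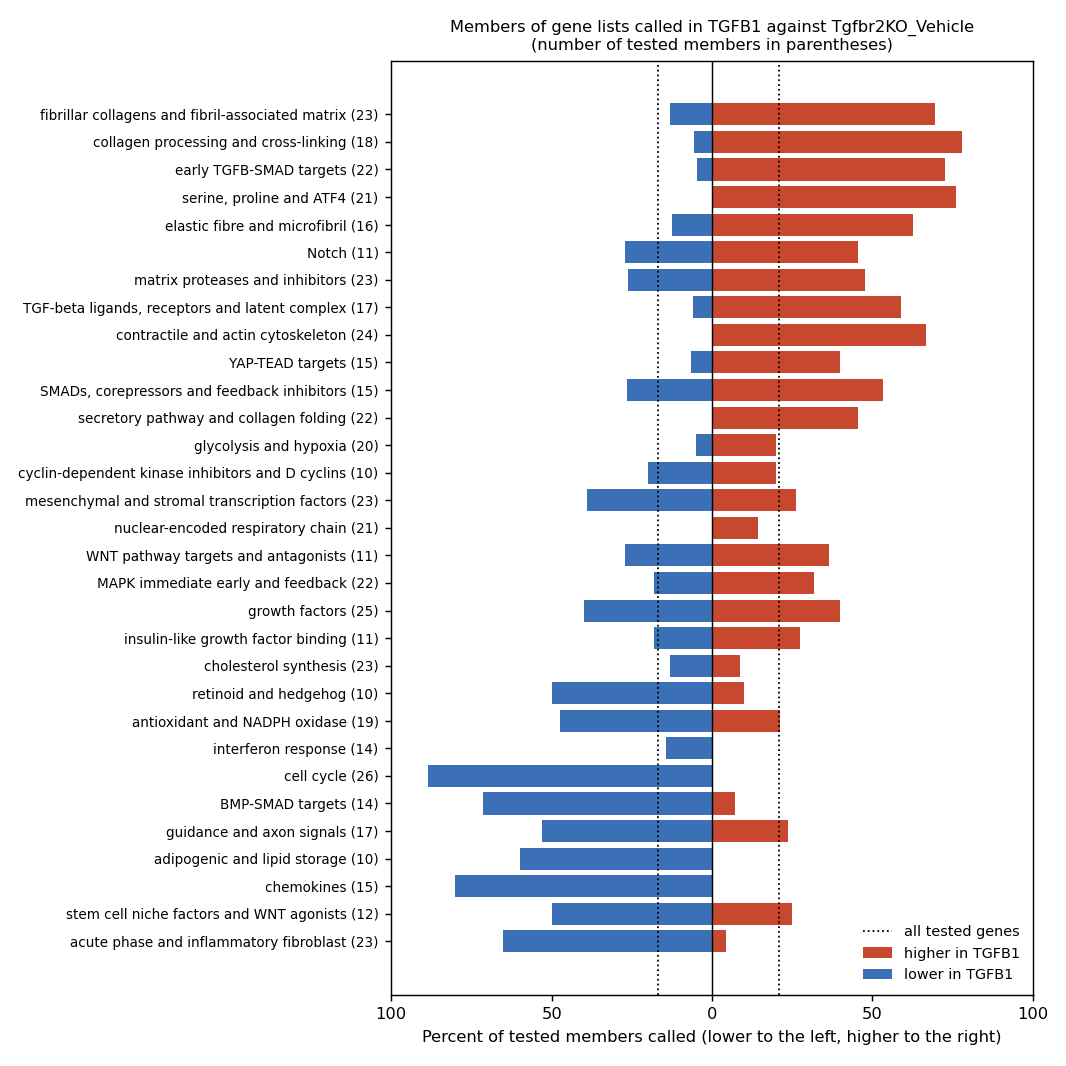
Share of the tested members of each pathway list with at least 10 tested members that passed an adjusted p of 0.05 (limma) between TGFB1 and Tgfbr2KO_Vehicle, with higher members as bars to the right and lower members to the left, lists sorted by their median difference. Dotted lines mark the shares over all tested genes, 21.0% higher and 16.9% lower. Fibrillar matrix genes stand at the top, with a median of 1.25, and acute phase genes at the bottom, with -1.80.

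**Figure D4:**
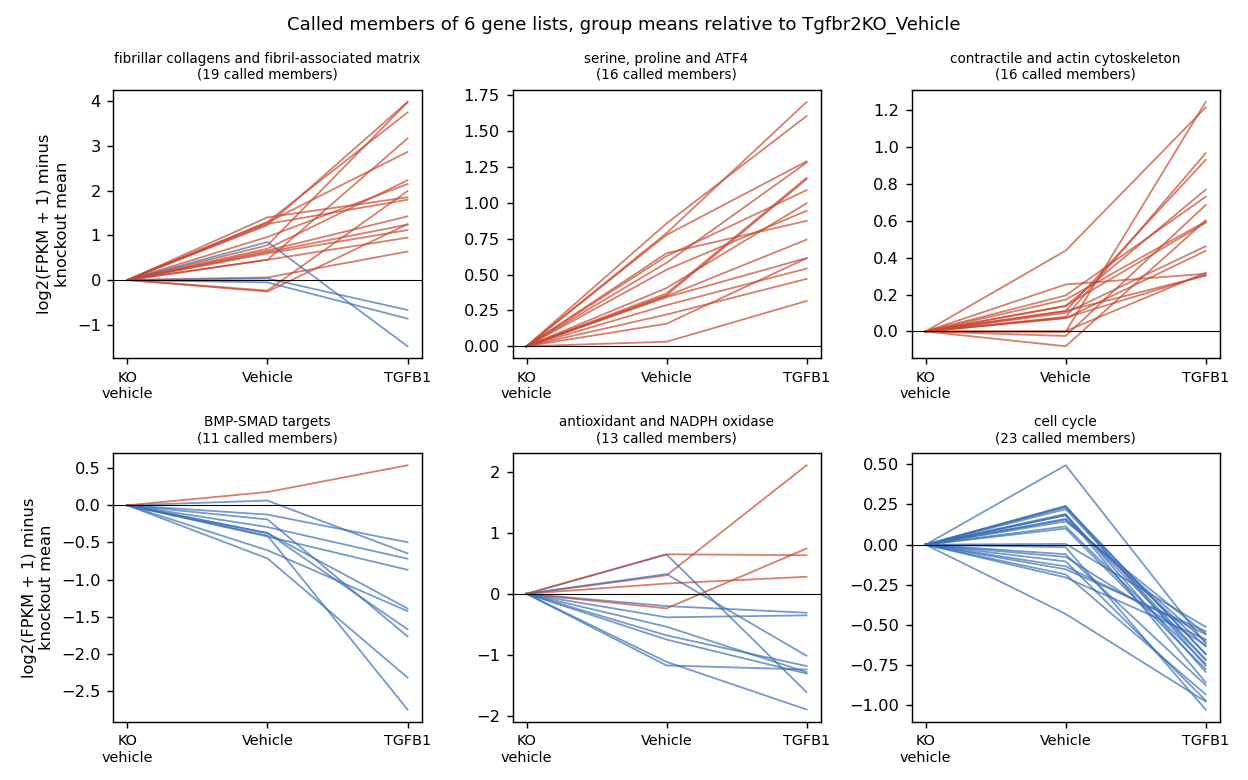
Group means of log2(FPKM + 1) minus the Tgfbr2KO_Vehicle mean for the called members of 6 gene lists, 1 line per gene, red where TGFB1 was higher and blue where it was lower, with a vertical scale for each panel. The lines of the 16 serine, proline and ATF4 members climb in both steps, whereas the 23 cell cycle members have a median Vehicle position of -0.15, above the knockout mean.

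Where the Vehicle cultures lay between the ends was described by a position that is 0 at the knockout mean and 1 at the TGFB1 mean of log2(FPKM + 1). Over the 356 genes at least 2-fold higher its median was 0.21 (interquartile range 0.03 to 0.39), and over the 524 genes at least 2-fold lower it was 0.26 (0.04 to 0.45). Placed by single Vehicle libraries, the medians were 0.20, 0.15 and 0.25 for the higher and 0.20, 0.21 and 0.32 for the lower genes. Without Vehicle replicate 3 they were 0.19 and 0.21. Without Tgfbr2KO_Vehicle replicate 1, a setting chosen after seeing the data, they were 0.17 and 0.20. Of the higher genes 68 had a position under 0, 133 lay from 0 to 0.25, 146 from 0.25 to 0.75, 8 from 0.75 to 1 and 1 above 1. For the lower genes these counts were 108, 152, 241, 19 and 4. Groups were ordered without overlap in 137 of the higher (38.5%) and 166 of the lower genes (31.7%), against 868 of all tested genes (7.16%). These shares are descriptions, since genes were chosen by the difference between the ends.

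**Figure D5:**
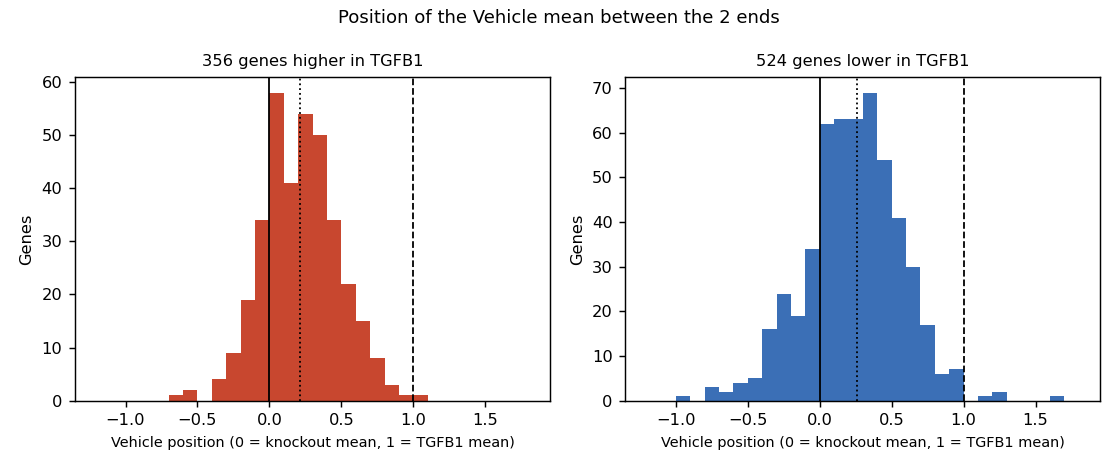
Histograms of the position of the Vehicle mean between the knockout mean (0, solid line) and the TGFB1 mean (1, dashed line) for the 356 genes at least 2-fold higher in TGFB1 (left) and the 524 at least 2-fold lower (right), with the vertical axis counting genes. Dotted lines mark the medians, 0.21 and 0.26, and most genes lie in the part nearer to the knockout mean.

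Few genes had Vehicle near or beyond the TGFB1 end. Areg, amphiregulin, an EGF receptor ligand, was at 17.4, 9.40 and 5.21 FPKM in the knockout cultures, 2.80, 1.80 and 1.32 FPKM in Vehicle and 1.01, 1.10 and 1.30 FPKM in TGFB1, a position of 0.81. The fitted steps of Areg were -1.86 from knockout to Vehicle and -0.45 from Vehicle to TGFB1. Sprr2h, a cornified envelope gene of a family with near-identical copies, was at 21.4, 6.35 and 5.68 FPKM, 0.357, 0.168 and 0.0930 FPKM and 0, 0.363 and 0.222 FPKM, a position of 0.99. Its level was highest in Tgfbr2KO_Vehicle replicate 1, the library with the highest epithelial marker sum, and its difference between the ends was -3.12 with all libraries and -2.56 without that one. Among higher genes Ogn, osteoglycin, was at 5.03, 10.2 and 17.2 FPKM, 27.1, 25.9 and 69.9 FPKM and 42.0, 47.6 and 51.2 FPKM (position 0.84), and Col1a2 had a position of 0.76. Crct1, another cornified envelope gene, was at 55.4, 26.3 and 19.3 FPKM in the knockout cultures, 1.83, 2.53 and 0.904 FPKM in Vehicle and 4.06, 3.26 and 3.12 FPKM in TGFB1, with a position of 1.26, beyond the TGFB1 end. Ivl, involucrin, had a position of 1.16, and Tgfbr2KO_Vehicle replicate 1 was not its highest library. In the opposite class, with Vehicle on the far side of the knockout mean, were Saa3 (-0.10), Igfbp4 (-0.31), Pdgfra (-0.45) and Rspo3 (-0.30), and among higher genes Odaph (-0.23), Tfpi2 (-0.05) and Olfm2 (-0.05). Lcn2 had steps of -1.16 and -6.35, Slpi of -2.37 and -3.74, and Mmp3 of -2.62 and -1.78, so the first step was the larger one in Mmp3 alone of these 3.

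Called members of the gene lists differed in their median position. It was 0.58 for antioxidant and NADPH oxidase genes (13 called), 0.51 for elastic fibre genes (12), 0.47 for serine, proline and ATF4 genes (16) and 0.45 for collagen processing genes (15). It was 0.31 for fibrillar matrix genes (19), 0.27 for BMP-SMAD targets (11), 0.20 for contractile genes (16) and 0.17 for early TGFB-SMAD targets (17). Cell cycle genes stood at -0.15 (23 called), complement genes at -0.19 (5) and niche genes at -0.03 (9). No test was run between lists, and members of a list are not replicates.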

How the data were processed

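RNA of 12 libraries was sequenced, and 9 libraries of 3 groups are described. The values are FPKM, as the authors deposited them in a single table with 1 row for each gene symbol. Per the submitters' processing notes, kallisto 0.46.1, DESeq2 1.40.1 and build mm9 were used; the scaling between libraries is not given in the sources used here. Columns were matched to libraries by group and label number.

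FPKM values were taken as log2(FPKM + 1), which understates the change of low genes; folds are ratios of mean FPKM. limma 3.58.1 in R 4.3.3, with a variance trend, fitted 4 group means to all 12 libraries (8 residual degrees of freedom), and p-values were two-sided and adjusted over the 12121 tested genes by Benjamini and Hochberg at 0.05. The median standard error was 0.11, with a 95% interval of 0.23 to either side. Members and the 36 pathway and 8 cell type lists were chosen with earlier results of these data known. The scripts were tested on simulated data. Python 3.11.15, numpy 2.4.6, pandas 2.3.3 and matplotlib 3.10.9 were used.

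Genes named are the 15 highest and 15 lowest differences among called genes with a mean of at least 5 FPKM at one end and no overlap, up to 4 called members of each list, fixed genes (Tgfbr2, Tgfb1, Pdgfra, Smad7, Acta2, Ccn2, Col1a1, Col3a1, Eln, Grem1, Rspo3, Bmp4, Il6, Saa3 and 1 that is not reported here), the 5 largest differences of each position class and direction, and the 10 largest ordered differences with a position of 0.25 to 0.75. Others are marked as chosen after their values were seen, except list members that did not pass. The labels number the replicates alike in all groups, and the fit took no number as a pair. Same-numbered deviations from the group means correlated at 0.44, 0.48 and 0.42 between TGFB1 and Vehicle, so the numbers pair these groups, but not at over 0.1 in every pair between the ends or between Vehicle and the knockout cultures. Alternatives varied the block, libraries, pseudocount (0.1 and 0.5), filter, scaling and trend. Promoter windows are RefSeq's.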

Additional observations from a re-analysis of the deposited data

How the results depend on the processing

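No difference of the 178 genes that the naming rule selected reversed under the 17 alternatives. Most of these genes were named because they passed in these same libraries, so a reversal was unlikely from the start and its absence is no separate support. Of the 175 that passed the threshold, 150 kept direction and call under every alternative in which they were tested. The number of calls was 5767 with the replicate block (3209 higher and 2558 lower), 5034 when the 6 libraries were fitted alone, 4754 without a filter and 4637 with a filter over all 12 libraries. With 1 library left out it ran from 3548 to 3973. Requiring 1 FPKM in all 6 libraries, which 10857 genes met, left 279 genes at least 2-fold higher and 307 at least 2-fold lower, against 356 and 524. That filter takes out every gene that was under 1 FPKM in a library of either end. Requiring a mean of 5 FPKM, which 8808 genes met, left 1360 genes lower, with 257 genes at least 2-fold higher and 335 at least 2-fold lower. The block changed no call of the 178 genes. In settings added after seeing the data, the block gave 5134 calls for TGFB1 against Vehicle over 12 libraries and 4474 over those 2 groups alone, and 1914 (1005 higher and 909 lower) in place of 169 for Vehicle against the knockout cultures. Same-numbered libraries of the ends deviated together at 0.38 and 0.29 for replicates 1 and 3 and at -0.02 for replicate 2, which did not correlate best with its own number. Of 72 counts of list members, 34 stayed within 1.5 times under every alternative. Scaling to the upper quartile gave 47.1% of calls as higher, against 55.4% as deposited. Read depth is unknown, and the TGFB1 libraries were the shallowest of the 12 by their low values.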
